A study of Mus musculus with 4 samples.

Results

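The 10 CXC chemokine genes of mouse chromosome 5, Cxcl5, Ppbp, Pf4, Cxcl3, Cxcl15, Cxcl1, Cxcl2, Cxcl9, Cxcl10 and Cxcl11, were taken from the deposited gene annotation by their gene name and chromosome, out of 46078 genes in all, of which 22159 are protein-coding. The annotation accompanies a study of polyadenylated RNA from bone marrow-derived macrophages, which are grown from mouse marrow with the growth factor M-CSF. The cells came from cohoused littermates with both Piezo1 alleles floxed, either without Cre (Piezo1 fl/fl, labelled WT) or with LysM Cre (labelled KO), a Cre that acts in myeloid cells and so not in macrophages alone. The strain label is C57/BL6, and the labels used here give no age of the mice. Cells of each genotype were held for 6 h under static or cyclic hydrostatic pressure, which gave 4 groups of 1 library each. The annotation serves all 4 groups alike and holds no library value, so what follows describes gene models, with no level of expression, no replicate error and no test. Levels of the 10 genes were not analysed here, and library depth is unknown.

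CXC chemokines are small secreted proteins that guide white blood cells along a gradient, and they are named for a pair of cysteines set apart by 1 residue. Members with glutamate, leucine and arginine (ELR) just before that pair typically draw neutrophils through the receptor Cxcr2. Cxcl9, Cxcl10 and Cxcl11 are instead induced by interferon and draw activated T cells and natural killer cells through Cxcr3. Stimulated macrophages are a known source of Cxcl1, Cxcl2, Cxcl3, Cxcl9 and Cxcl10, Cxcl15 is known from lung epithelium, and Pf4 and Ppbp are stored in platelets.

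The coding bases around the cysteine pair are shown first, because they separate the ELR members from the rest. Each stretch is 30 bases of the coding strand of GENCODE M21, on GRCm38. The capitals mark the 3 codons before the codon of the first cysteine.
Cxcl5 (chr5:90759712-90759741, plus): gcaacgGAGCTGCGTtgtgtttgcttaacc
Ppbp (chr5:90769070-90769099, plus): tatatcGAACTGCGCtgcagatgtacgaat
Pf4 (chr5:90772929-90772958, plus): gatggaGATCTTAGCtgtgtgtgtgtgaag
Cxcl3 (chr5:90786353-90786382, plus): gccagtGAGCTGCGCtgtcagtgcctgaac
Cxcl15 (chr5:90795213-90795242, plus): actcaaGAGCTACGAtgtctgtgtattcag
Cxcl1 (chr5:90891481-90891510, plus): gccaatGAGCTGCGCtgtcagtgcctgcag
Cxcl2 (chr5:90904127-90904156, plus): gccagtGAACTGCGCtgtcaatgcctgaag
Cxcl9 (chr5:92326836-92326865, minus): ataaggAATGCACGAtgctcctgcatcagc
Cxcl10 (chr5:92348175-92348204, minus): gcaaggACGGTCCGCtgcaactgcatccat
Cxcl11 (chr5:92361294-92361323, minus): ttcaaaCAGGGGCGCtgtctttgcatcggc

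The capitals spell glutamate, leucine and arginine in 6 members, Cxcl5, Ppbp, Cxcl3, Cxcl15, Cxcl1 and Cxcl2, and not in the other 4. Pf4 lies among the ELR genes on the chromosome but its codons are GAT, CTT and AGC, which keep the leucine only. The name neutrophil-attracting for that subcluster therefore covers 6 ELR genes and Pf4. None of the 3 interferon-induced genes carries ELR codons, and all 3 have an arginine codon directly before the first cysteine. The same 3 capitals, GAGCTGCGC, occur in Cxcl3 and Cxcl1, while Cxcl2 has GAACTGCGC. The first cysteine is encoded by codon 30 in Cxcl15, Cxcl9 and Cxcl10, by codon 36 in Cxcl3 and Cxcl2, and by codons 53 and 52 in Cxcl5 and Ppbp. In 9 genes it lies in exon 2, after 26 to 38 bases of that exon. In Cxcl11 the cysteine codon lies in exon 3, also after 26 bases.

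The members formed 2 subclusters on opposite strands. The first runs on the plus strand from Cxcl5 (chr5:90759360-90761624) over Ppbp (chr5:90768518-90770063), Pf4 (chr5:90772435-90773383), Cxcl3 (chr5:90786103-90789600), Cxcl15 (chr5:90794534-90803067) and Cxcl1 (chr5:90891241-90893115) to Cxcl2 (chr5:90903871-90905938). It spans 146.6 kb. The second lies on the minus strand, with Cxcl9 (chr5:92321347-92328079), Cxcl10 (chr5:92346638-92348889) and Cxcl11 (chr5:92359544-92365485), and spans 44.14 kb. A stretch of 1.415 Mb separates them, so all 10 genes fit in 1.606 Mb. Counted over all transcripts, including forms that retain introns, exons of the members cover 9.03% of the first span and 20.5% of the second. The first span includes a gap of 88173 bases between Cxcl15 and Cxcl1, which lowers its share.

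**Figure D1:**
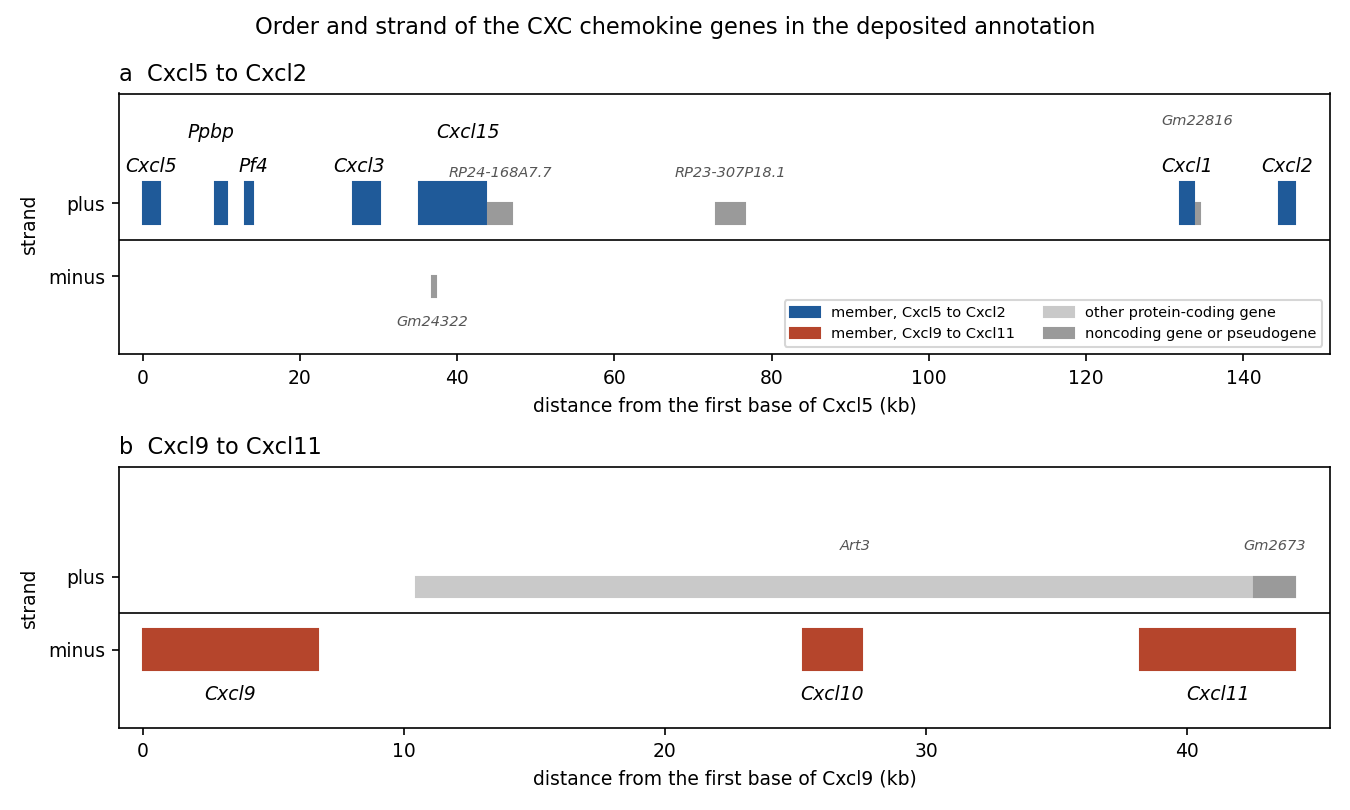
The x axes give the distance from the first base of Cxcl5 (a) and of Cxcl9 (b) in kb, and boxes above and below the line are genes on the plus and the minus strand. The 7 members in a lie on the plus strand with an open stretch of 88173 bases before Cxcl1, and the 3 members in b lie on the minus strand opposite Art3, which is drawn only as far as the last base of Cxcl11 and continues beyond it.

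Spacing within the first subcluster was uneven. Ppbp and Pf4, both platelet chemokine genes, are 2371 bases apart, which is at or above only 15.0% of the 19421 gaps between neighbouring protein-coding genes in the annotation. Coding neighbours that overlap have no gap and were left out of these 19421. Cxcl3 and Cxcl15 are 4933 bases apart, Cxcl5 and Ppbp 6893, Cxcl1 and Cxcl2 10755, and Pf4 and Cxcl3 12719. The gap from Cxcl15 to Cxcl1 is 88173 bases and exceeds 83.0% of all such gaps. It divides the subcluster into 5 genes within 43708 bases and the pair Cxcl1 and Cxcl2 within 14698 bases. Cxcl3, the gene whose coding sequence is closest to that of Cxcl2, thus lies on the far side of that gap. The median of the 6 gaps was 8824 bases, against 18042 bases for neighbouring protein-coding genes that do not overlap. In the second subcluster Cxcl9 and Cxcl10 are 18558 bases apart, and Cxcl10 and Cxcl11 are 10654 bases apart. Neither gap is set against that median, because the coding gene Art3 on the other strand begins in the first and covers the second.

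The 7 plus-strand members stand in a run of 11 protein-coding genes with no coding gene on the other strand. After Cxcl2 the run continues with Mthfd2l, an enzyme gene of mitochondrial folate metabolism, and with Epgn, Ereg and Areg, which encode ligands of the EGF receptor. Of 10564 runs of coding genes on 1 strand in the annotation, 68 (0.644%) were at least as long. The nearest coding neighbours of the first subcluster were Rassf6, 118702 bases before Cxcl5 on the minus strand (chr5:90603076-90640657), and Mthfd2l, 25178 bases after Cxcl2 (chr5:90931117-91021368). Those wholly outside the second were Sdad1, 10867 bases from Cxcl9 (chr5:92284010-92310479), and Nup54, a nuclear pore gene 50054 bases from Cxcl11 (chr5:92415540-92435219). Both lie on the minus strand like Cxcl9 and Cxcl11. The coding gene Art3, on the plus strand, overlaps the second subcluster and runs on beyond Cxcl11.

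No other protein-coding gene lies among the 7 members of the first subcluster. The 4 other genes there are not annotated as protein-coding. Gm24322, annotated as a microRNA gene of 70 bases, sits on the minus strand in intron 2 of Cxcl15 (chr5:90796186-90796255). The wide gap between Cxcl15 and Cxcl1 holds RP24-168A7.7, a transcript still to be experimentally checked (chr5:90803261-90806392, plus), and RP23-307P18.1, a long intergenic noncoding gene (chr5:90832328-90835951, plus). Gm22816, annotated as an rRNA gene (chr5:90893380-90893496, plus), starts 264 bases after the end of Cxcl1. The second subcluster holds 2 other genes. Art3, which encodes a member of the ADP-ribosyltransferase family, runs on the plus strand over 82802 bases (chr5:92331827-92414628) and begins 3747 bases beyond Cxcl9. Gm2673 is a processed pseudogene on the plus strand (chr5:92363904-92365511). Between the subclusters lie 38 genes, of which 15 are protein-coding. They include the EGF receptor ligand genes Epgn, Ereg, Areg and Btc and, next to Cxcl9, Ppef2, Naaa and Sdad1. Of the remainder, 6 are long intergenic noncoding genes and 5 are processed pseudogenes.

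The exon plan was shared across both subclusters. The protein-coding transcript with the longest coding sequence was used for each gene. It has 4 exons in 7 members, 3 exons in Ppbp and Pf4, and 5 in Cxcl11. Of 21409 protein-coding genes with a start and a stop codon, 1759 (8.22%) have 4 exons, and the median is 7. Exon 1 holds the start codon, exon 2 holds 124 to 136 coding bases in every gene but Cxcl11, and exon 3 of the 4-exon genes holds 81 to 90. In Cxcl11 the third exon is the one that matches exon 2 of the others, with 127 bases.

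Where the introns cut the reading frame was shared still more widely. An intron of phase 0 lies between codons, and one of phase 1 or 2 lies after the first or the second base of a codon. The first intron has phase 1 and the second phase 2 in 9 members, all except Cxcl11. This pair of phases at the first 2 introns occurs in 1102 (5.15%) of the coding genes. The phases of Cxcl11 are 0, 1, 2 and 0. The leading 0 belongs to an intron of 2 bases described below, and the other introns of Cxcl11 have the phases 1, 2 and 0. The full series 1, 2, 2 occurs in 6 members, Cxcl5, Cxcl3, Cxcl15, Cxcl1, Cxcl2 and Cxcl10. Among all 4-exon genes 39 (2.22%) have it, and those 39 include the members. Cxcl9 ends with phase 0 instead, as does Cxcl11. Ppbp and Pf4, with 3 exons, have only the phases 1 and 2.

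**Figure D2:**
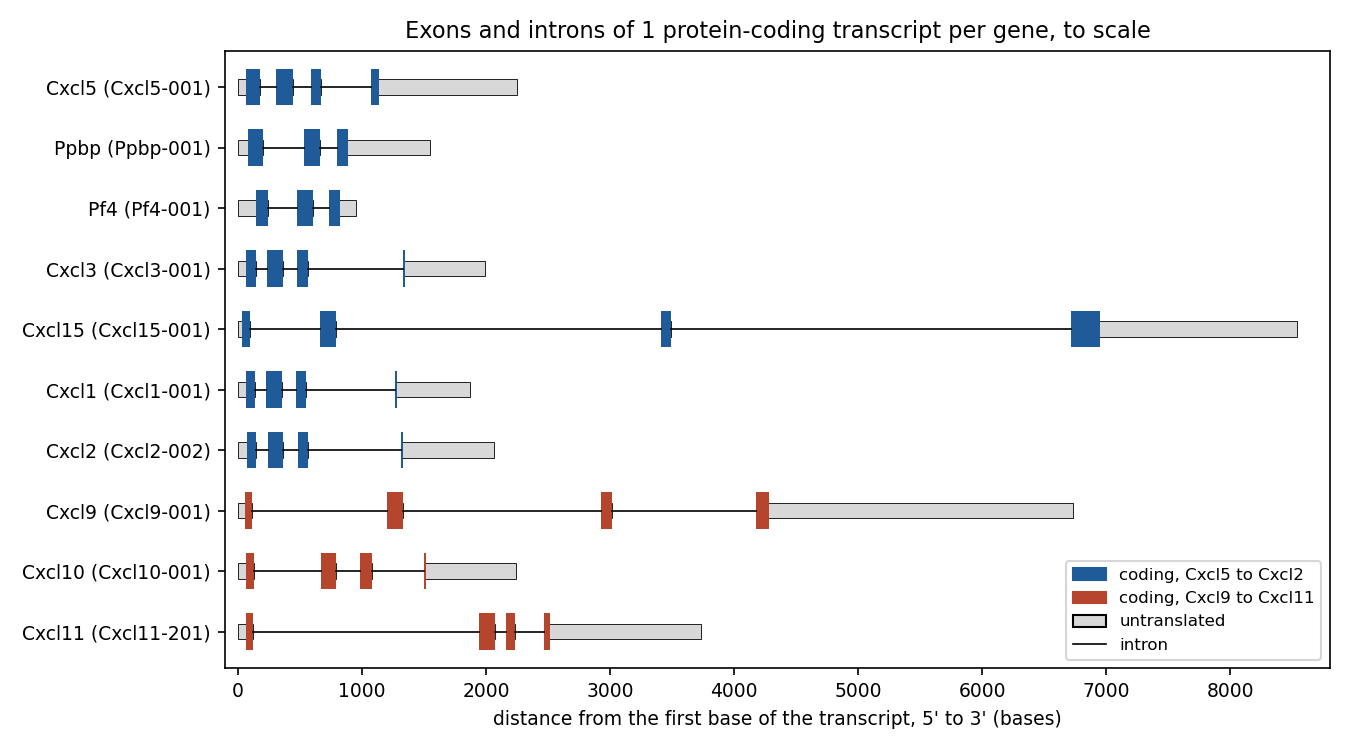
Each row is the protein-coding transcript of 1 gene, drawn to scale from its first base (x axis, bases, 5′ to 3′), with coding parts including the stop codon as tall boxes, untranslated parts as low boxes and introns as lines. Cxcl1, Cxcl2 and Cxcl3 show the same layout with a short coding tip of 13 bases, stop codon apart, in exon 4, Cxcl15 has the longest introns, of 2614 and 3223 bases, and the first 2 exons of Cxcl11 touch because only 2 bases separate them.

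The 3 GRO-type genes Cxcl1, Cxcl2 and Cxcl3, whose products are Cxcr2 ligands, were the most alike in layout. Cxcl3-001 has exons of 147, 124, 84 and 661 bases and introns of 92, 118 and 765. Cxcl2-002 has exons of 151, 124, 84 and 750 bases and introns of 92, 117 and 748. Cxcl1-001 has exons of 140, 124, 81 and 608 bases and introns of 89, 115 and 718. In all 3 the last exon carries 13 coding bases before the stop codon and is otherwise 3′ untranslated. Cxcl10, of the other subcluster, ends in a similar way with 16 coding bases in exon 4. Cxcl5, a further Cxcr2 ligand, has introns of 128, 142 and 402 bases and 58 coding bases in its last exon. Cxcl15 departs from its neighbours with introns of 570, 2614 and 3223 bases and 229 coding bases in exon 4.

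The platelet genes were the most compact. Pf4-001 has exons of 244, 133 and 211 bases and introns of 233 and 128, and its whole span is the shortest of the 10. Ppbp-001 has exons of 206, 130 and 747 bases and introns of 329 and 134. Exon 3 of Pf4 and of Ppbp carries 85 and 88 coding bases, respectively, near the size of exon 3 in the 4-exon members, and the coding sequence ends there. Among the interferon-induced genes, Cxcl9 has introns of 1086, 1601 and 1157 bases, Cxcl10 of 538, 194 and 419, and Cxcl11-201 a long one of 1820. Summed introns ranged from 361 bases in Pf4 to 6407 in Cxcl15, with a median of 966 against 12971 for all coding genes.

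Coding lengths, counted without the stop codon, ranged from 288 bases in Cxcl1 to 501 in Cxcl15, with a median of 307.5. The median of all coding genes was 1188, and 2390 (11.2%) are no longer than Cxcl15. Cxcl10 has 294 coding bases, Cxcl11-201 has 297, Cxcl2 and Cxcl3 both have 300, Pf4 315, Ppbp 339, Cxcl9 378 and Cxcl5 396. The extra length of Cxcl15 lies in its last exon. The extra length of Cxcl5 lies partly before the cysteine pair, which starts at codon 53 against 36 in Cxcl2 and Cxcl3.

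The untranslated parts varied far more than the coding parts. The 3′ UTR was 123 bases in Pf4 and 2452 in Cxcl9, with 592 in Cxcl1, 645 in Cxcl3, 656 in Ppbp, 729 in Cxcl10, 734 in Cxcl2, 1111 in Cxcl5, 1218 in Cxcl11-201 and 1586 in Cxcl15. The median of 731.5 bases lay above the 605 of all coding genes. The 5′ UTR was 37 bases in Cxcl15 and 147 in Pf4, with a median of 68 against 134. The interferon-induced genes had a median 3′ UTR of 1218 bases over 3 genes and the other subcluster one of 656 over 7, and the ranges overlap.

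Most of the genes had more than 1 transcript. The 10 genes have 23 transcripts, of which 13 are protein-coding, 9 are retained-intron forms and 1 is a polymorphic pseudogene. A retained-intron transcript is annotated for 7 members, and for 6572 (30.7%) of the coding genes. In Cxcl3, Cxcl1, Cxcl2 and Cxcl10 such a transcript is a single exon, of 3498, 1871, 2066 and 2230 bases, that spans all introns. Single-exon retained-intron models, whether or not they span all introns, occur in 842 (3.93%) of the coding genes.

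These models set the union exon length, the number of bases that any transcript of a gene covers. Cxcl3-002 also runs 1507 bases past the end of Cxcl3-001 toward Cxcl15, so the union of Cxcl3 is 3498 bases, 3.44 times its coding transcript of 1016. A larger ratio was found in 493 (2.30%) of the coding genes, and the median was 1.04. The union is 2.06 times the coding transcript in Cxcl10 and 2.4 times in Cxcl11. For Cxcl1 the union of 1875 bases compares with 953 in the coding transcript, and for Cxcl2 2068 with 1109. Ppbp and Cxcl15 have 1 transcript, so their unions of 1083 and 2127 bases equal it. Cxcl5 has a union of 1863 bases, Pf4 721 and Cxcl9 3016.

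**Figure D3:**
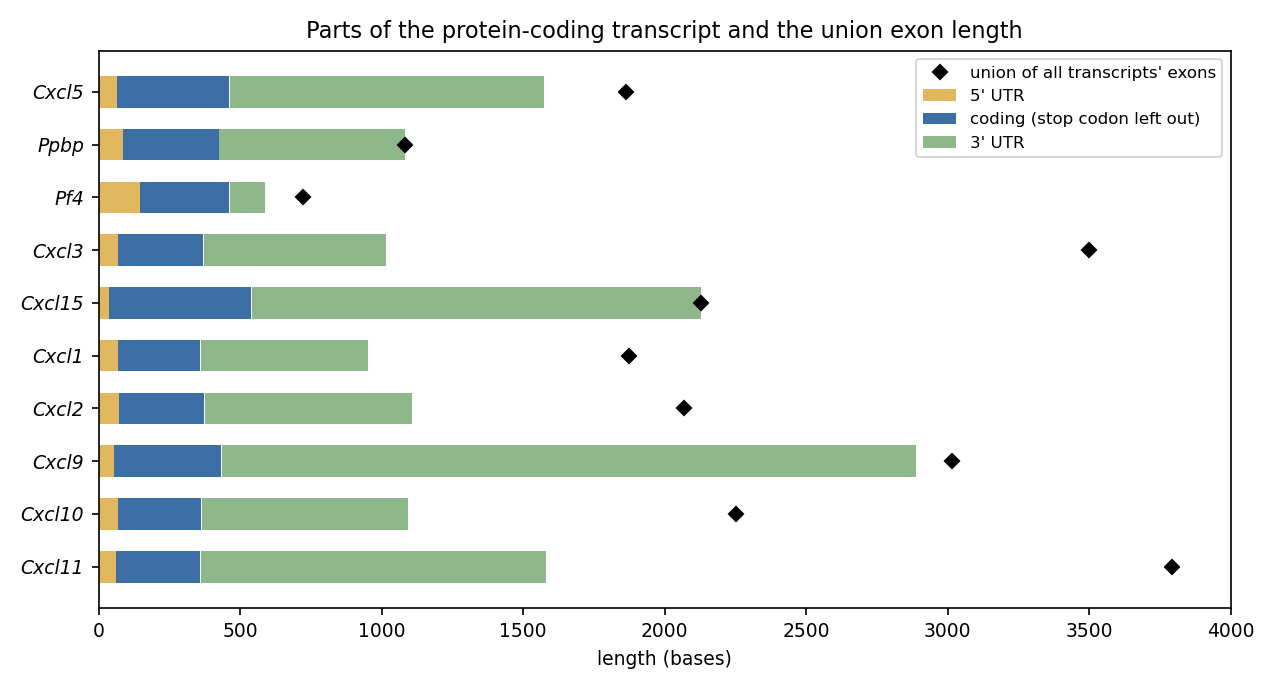
Bars give the lengths in bases (x axis) of the 5′ UTR, the coding sequence and the 3′ UTR of the protein-coding transcript, with a white line for the stop codon, and diamonds give the union over all transcripts. The diamond lies on the bar end for Ppbp and Cxcl15 and farthest from it for Cxcl3 (3498 against 1016 bases) and Cxcl11 (3794 against 1581).

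Alternative coding transcripts differed at the 3′ end in 3 genes. Cxcl2-001 has 3 exons, of 153, 124 and 1582 bases, and reads through the last intron, which leaves 288 coding bases and a 3′ UTR of 1494. Cxcl10-002 has exons of 136, 127 and 1090 bases, with 279 coding bases and a 3′ UTR of 996. Pf4-002 has 2 exons, of 166 and 245 bases, with 231 coding bases against 315 in Pf4-001 and a 3′ UTR of 108 against 123.

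Cxcl11, which encodes a Cxcr3 ligand, was annotated in a way that set it apart. Its biotype is polymorphic pseudogene, a class with 19 genes in the annotation, used where a gene is intact in some individuals or strains and disrupted in the reference genome. C57BL/6 mice are known to carry a frameshift in Cxcl11. Cxcl11-001 has 4 exons, of 2331, 127, 73 and 1263 bases, and 299 coding bases, which leaves 2 after division into codons. Read from its start codon, it met a stop at codon 37. Cxcl11-201 leaves out 2 bases after the first 36 coding bases, as an intron of 2 bases (chr5:92363177-92363178), and then has 297 coding bases with none left over. Its first stop was codon 100, the annotated one. The models are shown over the same stretch of the minus strand (chr5:92363163-92363192), with the 2 bases that differ in capitals in the first.
Cxcl11-001: tagccctggctgcaATatctgggccacagc
Cxcl11-201: tagccctggctgcaatctgggccacagc

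The 2-base intron is a device of annotation that restores the frame, and it is why Cxcl11-201 counts 5 exons and starts with phase 0. Introns of 2 bases or fewer occur in 29 (0.135%) of the coding genes. With Cxcl11-001 in its place, 8 members have 4 exons. Exon 1 of Cxcl11-001 is also long, with a 5′ UTR of 2271 bases against 63 in Cxcl11-201, and this accounts for the union of 3794 bases. The other 9 genes are annotated as protein-coding.

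Both Cxcl10 and Cxcl11 lie wholly within the span of Art3 on the opposite strand. Of 19 Art3 transcripts 17 are coding, and 4 of these hold Cxcl10 within a single intron, as 4 hold Cxcl11. Exons of Art3 cover 133 bases of Cxcl10 (chr5:92346638-92346770), which is 5.91% of its union and 12.2% of Cxcl10-001. All 133 belong to Art3-002, a processed transcript with no coding bases there, and lie at the 3′ end of Cxcl10. Exons of Art3 cover 0 bases of Cxcl11. Gm2673 covers 1582 bases of Cxcl11 (chr5:92363904-92365485), 41.7% of its union and 98.4% of the pseudogene, and all of them lie in the long first exon of Cxcl11-001 and none in Cxcl11-201. The other 8 members share no exon base with any gene. The share of all genes with such an overlap was not measured. The sources used here do not say whether the library kit marked strand. Without strand, a read that lies wholly within these overlaps does not by itself tell which gene it came from.

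Read-length windows gave the same members and 2 cases of shared sequence at different places. Of all 75-base windows in the transcripts of a gene, 59 of 2393 (2.47%) in Cxcl10 also occur in Art3 and 1508 of 3792 (39.8%) in Cxcl11 also occur in Gm2673, both on the opposite strand and both from the overlaps just given. Cxcl2 and Cxcl3 share 101 windows with each other, 4.57% of 2209 in Cxcl2 and 2.78% of 3637 in Cxcl3. Cxcl5 shares 12 of 1926 windows (0.623%) with 5 genes elsewhere, among them Ilf2 and Dock3. Ppbp, Pf4, Cxcl15, Cxcl1 and Cxcl9 share none. How many genes of the whole annotation share such windows was not measured.

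The sequence common to Cxcl2 and Cxcl3 lies at the 5′ end. Their spliced coding transcripts hold 1 identical run of 110 bases, bases 61 to 170 of Cxcl2-002, which begins in the 5′ UTR ahead of the first coding base at 73. Between the unspliced transcripts the run is 157 bases (chr5:90903933-90904089 in Cxcl2), of which 79 are coding and 66 belong to intron 1. The coding sequences are identical at 269 of 300 bases (89.7%). Intron 1 is identical at 90 of 92 bases (97.8%), more than the coding sequence, and intron 2 at 100 of 117 aligned (85.5%). Counts of reads shorter than these runs can be split between Cxcl2 and Cxcl3, so values for the pair are uncertain there.

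Cxcl1 stood farther from both, although it is the neighbour of Cxcl2. Its coding sequence is 78.8% identical to that of Cxcl2 and 75.7% to that of Cxcl3, and its intron 1 is 73.5% identical to either. In intron 3 and the 3′ UTR the 3 pairs ranged from 59.7% to 69.5%, with 162 to 223 gap bases per pair. These shares count only aligned bases, and the level that unrelated sequences reach under the same scoring was not measured. Over all 45 pairs of members the coding identity ranged from 56.0% to 89.7%, with a median of 63.1%. Beside the 3 GRO-type pairs, the 18 other pairs in the first subcluster had a median of 63.9%, the 3 interferon-induced pairs 58.7%, and the 21 pairs across the subclusters 62.9%.

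The 3′ UTRs of Cxcl1 and Cxcl2 were dense in the pentamer ATTTA, the core of AU-rich elements, which are bound by proteins that speed up decay of cytokine mRNAs. Cxcl2 has 11 copies, 15.0 per 1000 bases, a density that 0.549% of 14926 genes reach. Cxcl1 has 7 copies, 11.8 per 1000 bases, reached by 0.992%. Cxcl3 has 5 copies, 7.75 per 1000, and Cxcl5 has 5, 4.5 per 1000. The single copy in Pf4 amounts to 8.13 per 1000 only because its 3′ UTR is 123 bases long. The median gene has 1 copy and a density of 0.983. Cxcl10 has 2 copies (2.74 per 1000), Cxcl9 3 (1.22) and Cxcl11 1 (0.821). Ppbp has 1 copy (1.52 per 1000) and Cxcl15 2 (1.26), so these 5 genes of both subclusters lay nearer that median than the other 5. The longer form TATTTAT was found in 4 members, 7 copies in Cxcl2, 6 in Cxcl1, 2 in Cxcl3 and 1 in Cxcl5, and in 23.4% of all genes at least once.

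The densest 30 bases of the 3 GRO-type 3′ UTRs are printed to show how the copies are placed, and the capitals mark ATTTA.
Cxcl1 (chr5:90892602-90892631, from base 79 after the stop codon): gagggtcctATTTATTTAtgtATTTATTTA
Cxcl2 (chr5:90905327-90905356, from base 123): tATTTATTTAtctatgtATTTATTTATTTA
Cxcl3 (chr5:90787629-90787658, from base 181): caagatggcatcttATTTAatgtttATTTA

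Cxcl2 has 5 copies in this stretch and Cxcl1 has 4, each overlapping another, and Cxcl3 has 2 that do not overlap. In Cxcl2-001, which keeps the last intron as 3′ UTR, the density is 7.36 per 1000 bases. Cxcl10-002 has 3 copies against 2 in Cxcl10-001.

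**Figure D4:**
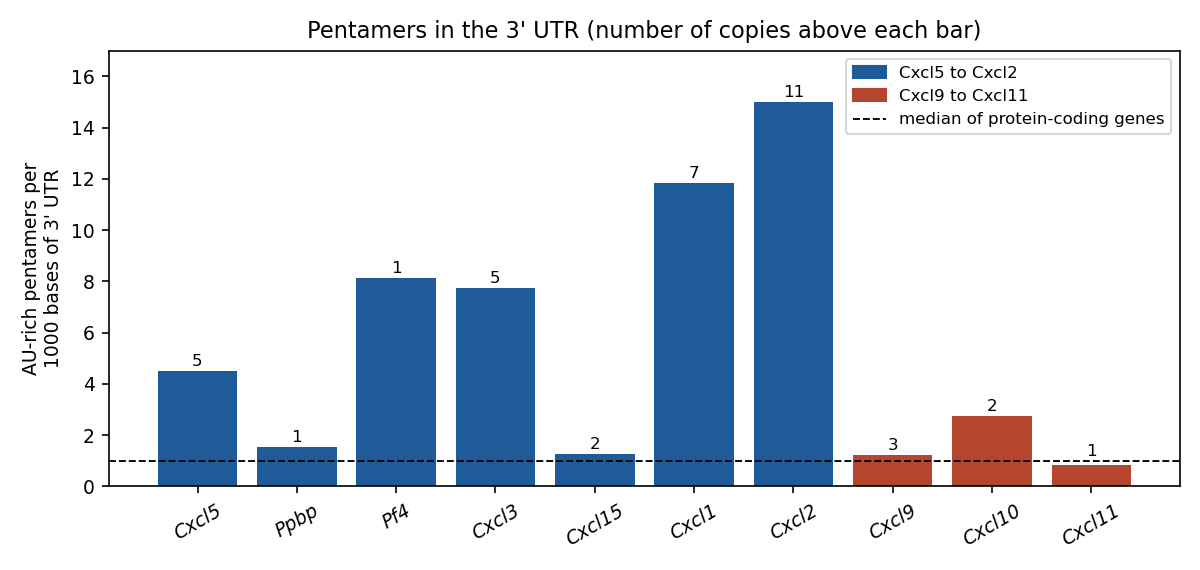
Bars give copies of the pentamer per 1000 bases of 3′ UTR (y axis) for each gene in chromosome order, with the number of copies above each bar, and the broken line is the median of 14926 protein-coding genes (0.983). Cxcl2 and Cxcl1 stand highest at 15.0 and 11.8, and Cxcl11 lies below the line at 0.821.

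Promoter windows from RefSeq (GRCm38.p6) reach from 250 bases before to 50 bases after a gene's start, and 8 of the 10 members were matched by symbol. Cxcl5 and Cxcl11 were not. The deposited coding transcript used for each of the 8 starts within 26 bases of the RefSeq start. Both strands were searched for the κB consensus, the site of NF-κB, a factor that inflammatory signals activate. It was found in Cxcl3, Cxcl1, Cxcl2 and Cxcl10, and in 1480 (4.51%) of 32851 promoters. The windows around it are printed on the gene's own strand with the match in capitals. In the first 3 the capitals join overlapping matches on both strands.
Cxcl3 (chr5:90786019-90786048, plus): agctgcgggGGGAATTTCCCcagcccgggc
Cxcl1 (chr5:90891165-90891194, plus): ctgtactccGGGAATTTCCCtggcccggag
Cxcl2 (chr5:90903793-90903822, plus): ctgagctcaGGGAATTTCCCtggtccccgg
Cxcl10 (chr5:92349029-92349058, minus): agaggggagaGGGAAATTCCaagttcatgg
Cxcl10 (chr5:92348973-92349002, minus): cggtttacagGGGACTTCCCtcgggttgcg

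The 3 GRO-type genes have the same letters in capitals, 71 bases before the RefSeq start in Cxcl1, 73 in Cxcl3 and 97 in Cxcl2. The deposited transcript starts 26 bases before the RefSeq start in Cxcl2, 4 before it in Cxcl1 and 2 after it in Cxcl3. The offset of Cxcl2 therefore depends on the start used. Cxcl10 has 2 matches. The one 159 bases before its start has the same letters as the minus-strand match in the 3 GRO-type genes, and the one 103 bases before it has other letters. The broader form GGNNNTTCC adds Cxcl9 and occurs in 18.5% of promoters. In Cxcl9 it lies 130 and 42 bases before the start. A match is a run of letters and no measurement of binding.

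The core of the interferon-stimulated response element, GAAANNGAA, was found in both interferon-induced genes that could be searched, in none of the other 6, and in 8.56% of all promoters. The matches are printed in capitals.
Cxcl9 (chr5:92328235-92328264, minus): ccgtttatgtGAAATGGAAgtagaacatgc
Cxcl10 (chr5:92349083-92349112, minus): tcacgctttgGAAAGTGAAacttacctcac

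They lie 175 bases before the start in Cxcl9 and 213 in Cxcl10. The AP-1 letters TGANTCA were found in Ppbp, Cxcl9 and Cxcl10, and in 7.81% of promoters. The AP-1 match lies 204 bases before the start in Ppbp, 74 before it in Cxcl10 and 31 after it in Cxcl9. TATAAA was found 30 bases before the start in Ppbp and Cxcl3 and 27 before it in Cxcl15, with a further match 8 bases before the start of Ppbp and one 195 bases before that of Cxcl9, and occurs in 13.6% of promoters. AGATAA, which GATA factors bind, was found in Pf4 and Cxcl10 and occurs in 11.2%. Its match lies 36 bases after the start in Pf4 and 22 before it in Cxcl10. These motifs were searched with any overlap between them allowed.

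**Figure D5:**
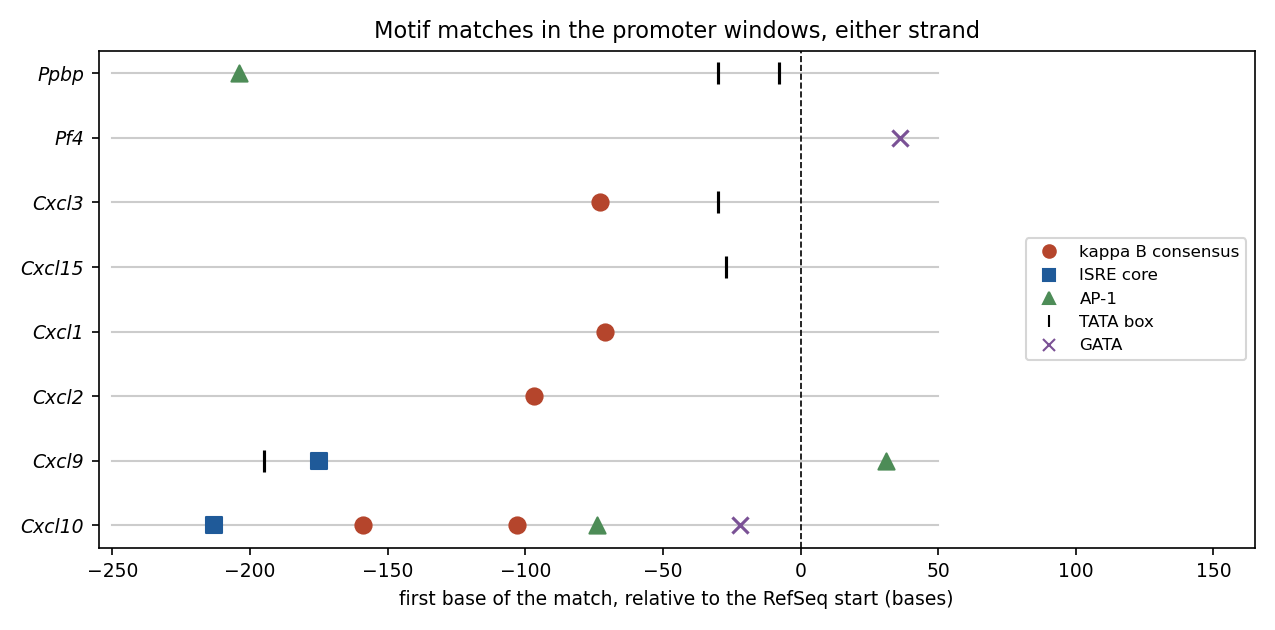
Each row is the promoter window of 1 gene, and the x axis gives the position of a match's first base relative to the RefSeq start in bases, with overlapping matches of 1 motif on both strands drawn once. The κB match lies 71 to 97 bases before the start in Cxcl1, Cxcl3 and Cxcl2, and only Cxcl9 and Cxcl10 carry the interferon response element core, 175 and 213 bases before it.

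The other ligands of the family lie elsewhere. Of 5 further CXC ligand genes only Cxcl13, a B cell attractant, is on chromosome 5 (chr5:95956951-95961068), on the plus strand 3.591 Mb beyond Cxcl11. Cxcl12 lies on chromosome 6, Cxcl14 on 13, Cxcl16 on 11 and Cxcl17 on 7. Cxcl12, Cxcl13 and Cxcl14 have 4 exons and the phases 1, 2, 2, with 357, 327 and 297 coding bases, so this plan was not limited to the chromosome 5 genes. Cxcl16, which is made as a membrane-bound form, has 5 exons, 738 coding bases and the phases 1, 2, 1, 1. Cxcl17 has 1, 1, 1.

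The receptor genes had a different structure. In 7 of 8 receptor genes more than 95% of the coding bases lie in 1 exon, and Cxcr5 has 94.9%. Their coding lengths ranged from 1002 bases in Ackr1, a decoy receptor, to 1122 in Cxcr5. Cxcr1 (chr1:74191785-74194631) and Cxcr2 (chr1:74153989-74161246), receptors of ELR ligands, lie close together on chromosome 1 on opposite strands. Cxcr3, the receptor of Cxcl9, Cxcl10 and Cxcl11, lies on the X chromosome (chrX:101731535-101734269). Cxcr4, Ackr1 and Ackr3 are on chromosome 1 and Cxcr6 is with Cxcr5 on chromosome 9, so none of the 8 lies on the chromosome of the ligands described here.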

How the data were processed

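RNA of 4 mouse macrophage libraries, selected for poly(A), was read in pairs of 75 bases, per the labels' protocols. Tools named in the submitters' processing notes are TopHat2, Bowtie2, Cufflinks, CASAVA 1.8 and FastQC, with the builds GRCm38 and mm10. The 1 deposited file used here is an Ensembl annotation of 1500259 lines with 1-based starts and ends, and the sources used here do not give its release. Its score column holds only dots and 0 of its columns hold a library value, so the planned description of expression could not be made. The 10 members are covered by 195 lines, and all 23 of their transcripts have the same exons in GENCODE M21, whose transcript sequences were read.

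The members, gene lists and measures were chosen with earlier results of these data known. Named genes are the 10 members, genes within a subcluster, the nearest coding neighbours, genes with overlapping exons and 13 other CXC ligand and receptor genes. Other genes were named after their values were seen. Gene spans cover all transcripts, and an overlap needed at least 1 base. Pairwise alignments (Biopython 1.88) were global, with match 2, mismatch -1, gap opening -5 and gap extension -0.5. Values were computed in Python 3.11.15, numpy 2.4.6 and pandas 2.3.3, and the functions were tested on simulated gene models. Protein features and protein identity were planned and not run. Coding bases were read in their place. The matches of 1 of the motifs searched are not reported here.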

Additional observations from a re-analysis of the deposited data

How the results depend on the processing

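Of 35 values under other settings, for 16 results, 11 moved and 24 did not, where a count moved if it changed by over 1.5 times and a length if it changed at all, and all 12 values from GENCODE M21 equalled those of the deposited file. With spans of the coding transcript alone, the median gap of the first subcluster was 8825 bases and the spans were 146561 and 41931 bases. With the coding transcript of the largest exon sum, the median 3′ UTR was 1053.5 bases and the median 5′ UTR 69. Cxcl11-001 in place of Cxcl11-201, an alternative chosen after seeing the data, also gave a median 5′ UTR of 69. Counting coding genes only, 0 lie within the first subcluster, 1 within the second and 15 between them. The longer AU-rich form gave 16 copies in 4 members, against 38 copies of the pentamer in 10. Of all genes searched, 59.0% have the pentamer at least once and 23.4% the longer form. Windows of 50 bases gave 7 members with shared sequence, against 5. Members with 4 exons numbered 5 with the largest exon sum, against 7, and members with a κB match 5 in the broader form, against 4. No paired analysis was possible because each group has 1 library and the deposited file holds no library value. The depth of the libraries is unknown and limits nothing said of gene models.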
